A study of Rattus norvegicus with 4 samples.

Results

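*Cacna1e* encodes the α1 subunit of the voltage-gated calcium channel Cav2.3, and the 119 splice variants described here are the prioritized *Cacna1e* variants that lack at least 1 minor cassette exon. They were chosen from the exon structures published for the prioritized set, and no read count entered the rule. The gene lies on the minus strand of chromosome 13 (rn6), and its 48 exons were numbered in transcript order. Exons 10, 19, 26 and 45 were taken as the 4 major cassette exons, and a variant was a member when it lacked any other exon and had no retained intron between exons 45 and 46. The major exons were set with earlier results known, as the paper had ranked exons 10, 19 and 45 as the commonest cassettes by reads. The rule found 119 members among 152 prioritized variants with a structure and 2108 variants in the count table. The copy of the structures used here does not hold every variant that was prioritized, and the others were not analysed here. Of the other prioritized variants listed, 31 lacked no minor exon and 2 held the retained intron. Structures of the 1956 variants outside the prioritized set were not analysed here.

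Reads came from thalamus of 4 male rats, 1 animal for each strain and age, so no group had a replicate. GAERS rats are inbred and have spontaneous absence seizures, and NEC rats are the matching strain without epilepsy. The libraries are named NEC10, GAERS10, NEC90 and GAERS90, where the number is the age in days after birth. The labels name no treatment. cDNA made from oligo-dT primed RNA was amplified with primers at the ends of the *Cacna1e* coding sequence and the amplicons were read on the MinION, a nanopore sequencer that can read a transcript from end to end. The study took its *Cacna1e* variants from a larger set of variants, and reads of the others were not analysed here. The counts hold *Cacna1e* variants alone, so the tissue could not be checked against marker genes. The counts summed to 349166 reads in NEC10, 669644 in GAERS10, 1498009 in NEC90 and 1544028 in GAERS90. Both P90 libraries were therefore deeper than both P10 libraries, and depth and age cannot be told apart. Reads are given below per 10000 *Cacna1e* reads of the same library, or as a share of reads.

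Cav2.3 is a channel of 4 repeated pore-forming domains joined by intracellular linkers, with a long C-terminus inside the cell. The linker between domains I and II carries the site where the auxiliary β subunit binds, and the IQ domain of the C-terminus binds calmodulin. A cassette exon is one that can be left out as a unit, and leaving it out keeps the reading frame when its length is a multiple of 3. The prioritized set was chosen by the study for an open reading frame of sufficient length and for 4 recognised pore-forming domains, so frame and domain content were part of how these variants were selected.

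The minor exons lacking in the most member reads lay in domain IV, in both linkers after domains I and II, and in the C-terminus. The sequences of 5 of the 8 most often lacking are shown because each is a piece of coding sequence that members remove. They are given 5′ to 3′ on the transcript strand in lower case, as read from the transcript sequences of the study. Exon 9 (chr13:71994118-71994171, minus strand, 54 nucleotides) lies in the linker after domain I, exons 32 (chr13:71950241-71950351, 111 nucleotides) and 35 (chr13:71940869-71940934, 66 nucleotides) lie in domain IV, exon 39 (chr13:71923412-71923508, 97 nucleotides) codes for part of GPHH, a conserved domain of calcium channel C-termini, and exon 41 (chr13:71920466-71920573, 108 nucleotides) codes for part of the IQ domain.
Exon 9: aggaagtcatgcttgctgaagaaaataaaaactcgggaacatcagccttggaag
Exon 32: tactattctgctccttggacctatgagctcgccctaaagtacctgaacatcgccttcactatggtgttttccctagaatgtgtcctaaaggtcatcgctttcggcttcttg
Exon 35: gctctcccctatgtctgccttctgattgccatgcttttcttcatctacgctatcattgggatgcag
Exon 39: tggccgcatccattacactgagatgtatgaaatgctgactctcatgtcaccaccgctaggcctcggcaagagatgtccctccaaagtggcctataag
Exon 41: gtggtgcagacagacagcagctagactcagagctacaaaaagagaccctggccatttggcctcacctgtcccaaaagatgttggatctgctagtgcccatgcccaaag

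Skipping joins the exon before the gap to the exon after it. The new junctions are shown because they are the sequences that the exon structures of members imply. They were joined from separately read exon sequences and were not read across in a transcript. Whether they also occur in variants outside the prioritized set was not examined. Each line gives the last 15 bases of the upstream exon in lower case and the first 15 bases of the downstream exon in capitals.
Exon 9 skipped, exon 8 to 10: ggatagacaaagcagTGCTTCGAAGGGCAA
Exons 9 and 10 skipped, exon 8 to 11: ggatagacaaagcagGCACACCTCTTGCCA
Exons 19 and 20 skipped, exon 18 to 21: catgccttccattgaGACCAACAGTCTGAT
Exon 35 skipped, exon 34 to 36: gtgcagtcctttaagGTGTTTGGAAACATA
Exons 38 and 39 skipped, exon 37 to 40: ttctgctccttcctgAGGTTGGTCCTGATG
Exon 41 skipped, exon 40 to 42: ttaaaatcgccaaagCCTCTGACCTGACTG
Exon 46 skipped, exon 45 to 47: actatggatccccagGTCACAAGTCTGACA
Exon 47 skipped, exon 46 to 48: tgaattctgactctgGGTACAGGTTCACTG
At the exon 41 junction, the last 6 bases of exon 40 and of the skipped exon 41 were the same. Such matches were counted at both ends of each gap. Over the 19 patterns whose exon ends could be read the median match was 2 bases. Over all 184 runs of 1 to 7 neighbouring exons that could be read it was 1 base, with a highest value of 7.

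Members lacked 26 different minor exons in 30 patterns, and 18 exons were lacking in no member. The 119 members held 108 distinct chains of junctions, as some members differ from another only in their transcript ends. Single exons were skipped in 15 patterns and runs of 2 to 7 exons in the other 15. Each of these 15 runs was made of neighbouring exons, apart from a major exon that could be missing between them. Most members, 79 of 119, skipped 1 minor exon, 31 skipped 2, and 9 skipped 3 or more. Members skipping 1 minor exon held 75.9% of member reads. The spliced members were 6086 to 6881 nucleotides long (median 6617) and kept between 39 and 46 exons.

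Exons that shift the frame were rarely skipped alone. All 12 minor exons with a length that is a multiple of 3 were skipped alone in at least 1 member. Of the 14 minor exons with another length, 11 were never skipped alone. All 15 runs of several exons summed to a multiple of 3, although 12 of them held an exon that on its own would shift the frame. For example, exon 38 (128 nucleotides) and exon 39 (97 nucleotides) were the whole pattern of 11 members, and the pair of 225 nucleotides keeps the frame. Among the 16 internal exons skipped by no member, 2 had a length that is a multiple of 3. In all, the minor exons skipped summed to a multiple of 3 in 112 of 119 members. The open reading frame was a criterion of the prioritized set, so these counts describe the set and are not evidence about splicing as a whole. Minor exons and the internal exons never skipped had median lengths of 119 and 113 nucleotides, with ranges of 54 to 654 and 60 to 202. Their median GC contents were 50.5% (23 exons read) and 50.0% (13 exons read).

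The exceptions to this frame rule were exon 25 alone in 1 member, and exons 46 and 47 alone in 3 members each. Exon 25 has 107 nucleotides, and its member carried a form of exon 27 longer by 2 nucleotides (99 against 97), so its own blocks summed to a multiple of 3. Exon 46 has 181 nucleotides and exon 47 has 191. Both lie near the 3′ end of the coding sequence, behind the IQ domain. Read in the frame of exon 45, the junction from exon 45 to 47 led to a stop codon after 68 codons, and that from exon 46 to 48 after 6 codons. In the 3 members that lacked both of these and no other minor exon, 372 nucleotides were removed and the frame was kept.

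**Figure D1:**
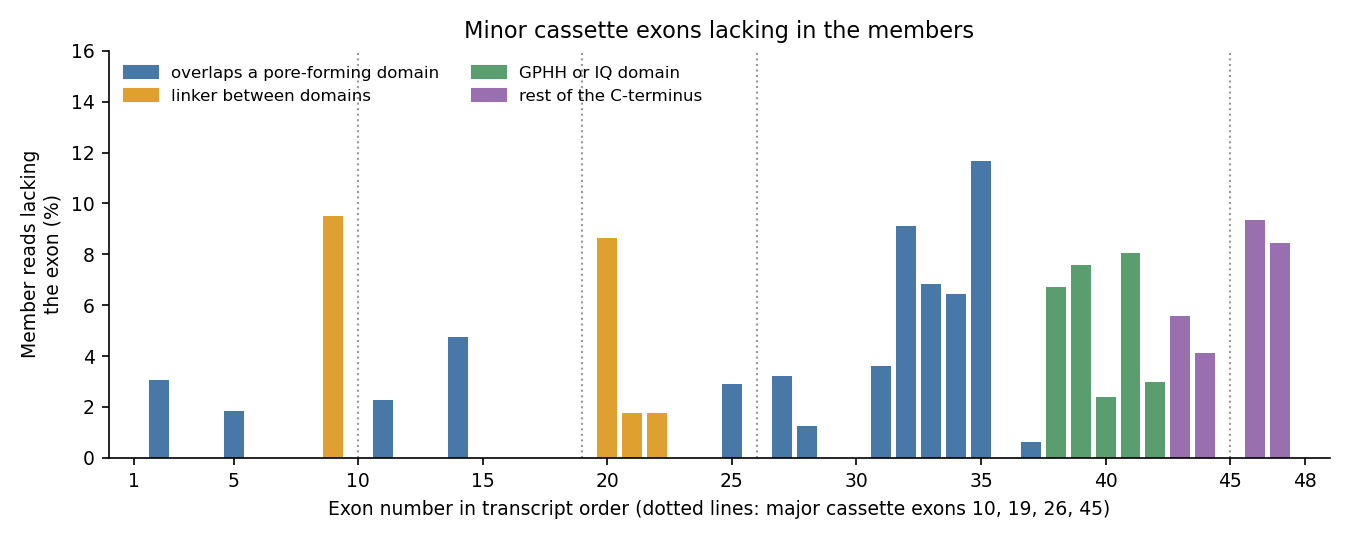
Share of the 147335 member reads (%, vertical axis) that lack each minor exon, by exon number in transcript order (horizontal axis), with bars coloured by the protein region the exon codes for. Exon 38, which overlaps both domain IV and GPHH, is coloured as GPHH. Exon 35 was lacking in 11.7% of member reads, exons 31 to 35 form a block in domain IV, and exons 38 to 44 form a block in the proximal C-terminus.

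Of the 26 minor exons, 14 overlapped a pore-forming domain. Exon 35 in domain IV was lacking in the most reads summed over libraries, 17170 or 11.7% of member reads, spread over 17 members. The sum is weighted towards the deeper P90 libraries, and in both P10 libraries exon 20 was lacking in more reads than exon 35 (56.4 and 75.2 per 10000). Per 10000 reads the loss of exon 35 was counted 29.3 times in NEC10, 20.5 in GAERS10, 49.6 in NEC90 and 47.6 in GAERS90. Exon 32 in the same domain was lacking in 9 members, with 19.4, 16.2, 39.1 and 37.7 reads per 10000 in the same order of libraries. Both exons were read more often as lacking in the P90 than in the P10 libraries, and the groups did not overlap. Exons 33 and 34 between them were each lacking in 10 members.

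In the linkers, exon 9 was lacking in 9 members and 9.52% of member reads. Its loss gave 25.9 reads per 10000 in NEC10, 19.4 in GAERS10, 33.3 in NEC90 and 44.2 in GAERS90. Exon 20, the longest minor exon with 654 nucleotides, was lacking in a single member, the most read of all. The neighbouring exons 21 and 22 were lacking together in 2 members, with 11.7 reads per 10000 in NEC10, 6.79 in GAERS10, 6.30 in NEC90 and 5.15 in GAERS90. The exon 21 and 22 pattern was thus lower in both P90 than in both P10 libraries, by a small margin between GAERS10 and NEC90.

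In the C-terminus, exon 46 was lacking in 8 members and 9.33% of member reads, and exon 47 in 7 members and 8.45%. Loss of exon 46 gave 18.7 reads per 10000 in NEC10, 13.8 in GAERS10, 39.4 in NEC90 and 40.6 in GAERS90. Loss of exon 47 gave 15.5, 10.99, 40.03 and 33.5 in the same order. Exon 47 had the largest P90 to P10 ratios of the 8 most skipped minor exons in both strains, 2.59 in NEC and 3.05 in GAERS.

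The exons that code for the calmodulin-binding IQ region and its GPHH neighbour were also lacking in some members. Exon 41, in the IQ domain, was lacking in 14 members, alone in 9 of them, with 19.7 reads per 10000 in NEC10, 15.7 in GAERS10, 35.4 in NEC90 and 31.3 in GAERS90. Exon 39, in GPHH, was lacking in 15 members and never alone, with 21.0, 14.9, 35.5 and 26.6 reads per 10000. The members that skipped the most minor exons lay here as well. One lacked exons 38 to 44, 7 minor exons, together with exons 10 and 26, and had 57 reads in NEC10, 81 in GAERS10, 264 in NEC90 and 170 in GAERS90. Of the 3 members next in number of exons skipped, all lacking exons 39 to 43, the 2 most read are named, 1 with exons 10, 19, 26 and 45 (819 reads in all) and 1 with exons 19, 26 and 45 (818 reads).

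Within the prioritized variants listed, loss of exon 26, a 12-nucleotide exon in domain III, went with loss of a minor exon by share of reads. Exon 26 was lacking in 118 of 119 members, and in 97.1% of member reads in NEC10, 97.5% in GAERS10, 96.4% in NEC90 and 95.7% in GAERS90. In the 31 prioritized variants that skip no minor exon, the same share of reads was 3.01%, 2.36%, 4.15% and 5.07%. Counted by variant the contrast was smaller, since 23 of these 31 variants (74.2%) lacked exon 26, and most reads of the set came from the 8 variants that kept it. The other major exons differed less between the sets by share of reads. Exon 10 was lacking in 58.8%, 62.6%, 42.2% and 41.8% of member reads, against 48.5%, 44.2%, 35.6% and 35.6% in the variants with no minor skip. Exon 19 was lacking in 65.8%, 68.8%, 68.6% and 73.6% of member reads, against 48.9%, 46.6%, 64.1% and 71.1% in the variants with no minor skip. Exon 45 was lacking in 41.8%, 36.3%, 42.4% and 38.2% of member reads, against 62.6%, 62.5%, 43.4% and 36.0%. For exon 45 the sets thus lay far apart in the P10 libraries and close together in the P90 libraries, where the order was the opposite in GAERS90. Without the exon 20 member, which lacks exons 10 and 19 and keeps exon 45, these shares changed. Exon 10 was then lacking in 48.4%, 46.7%, 39.8% and 38.5% of member reads, which is close to the variants with no minor skip in NEC10 and GAERS10. Exon 19 was then lacking in 57.2%, 55.5%, 67.3% and 72.2%, and exon 45 in 52.3%, 51.8%, 44.2% and 40.4%.

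Reads that lack exon 26 were summed over the members and the 23 listed variants with no minor skip. Of these reads, the members held 59.4% in NEC10, 63.3% in GAERS10, 62.7% in NEC90 and 55.8% in GAERS90. Prioritized variants without a structure here could not be counted, and whether they would change these shares is not known. The members thus held the larger part of the summed reads in every library. With the exon 20 member left out, the shares were 53.7%, 54.5%, 61.7% and 54.4%. Whether the alignment or the collapse of reads into variants treats this short exon differently beside another gap was not tested.

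One member kept exon 26. It lacked exon 32 together with the major exons 19 and 45, and was the second most read member, with 287 reads in NEC10, 415 in GAERS10, 2192 in NEC90 and 2574 in GAERS90. As shares these are 8.22, 6.20, 14.6 and 16.7 per 10000 reads. Both P90 values lay above both P10 values. The prioritized variant with the same major exons lacking and no minor skip had 242425 reads, so the member made up 2.21% of the reads of the pair. By library the member's part was 1.33% in NEC10, 1.05% in GAERS10, 2.48% in NEC90 and 2.62% in GAERS90.

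Most members were modest in abundance. They held 147335 of 4060847 reads, or 3.63% (95% Wilson interval 3.61% to 3.65%, which covers counting error only since the PCR reads carry no molecular identifiers). Reads per member ran from 153 to 12704, with a median of 956 and quartiles of 814 and 1203.5. The median over all 2108 variants was 401.5 reads, and over the 31 prioritized variants with no minor skip it was 2247. The most read member ranked 23 of 2108. All 119 members had at least 3 reads in every library, and 117 had at least 10, which is 98.3% against 63.1% of all variants. For the variants with no minor skip this share was 93.5%. The 10 most read members held 27.6% of member reads.

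The most read member lacked exons 10, 19 and 26 and the minor exon 20. It had 1970 reads in NEC10, 5036 in GAERS10, 2465 in NEC90 and 3233 in GAERS90, or 56.4, 75.2, 16.5 and 20.9 per 10000. Both P10 libraries were far above both P90 libraries, and the P90 to P10 ratio was 0.29 in NEC and 0.28 in GAERS. This member held 8.62% of member reads, and the next member held 3.71%.

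By reads summed over libraries, most of the other most read members lacked an exon of the C-terminus or of the first linker. This sum is weighted towards the P90 libraries. In NEC10 the members lacking exons 21 and 22 (229 and 181 reads) lay above the exon 46 and exon 47 members. In GAERS10 the member lacking exon 5 with exons 10 and 26 (320 reads) did so. With exons 19 and 26 also lacking, the exon 46 member had 162 reads in NEC10, 246 in GAERS10, 1535 in NEC90 and 2029 in GAERS90. The exon 47 member with the same major exons lacking had 127, 193, 1757 and 1708 reads. Per 10000 reads these are 4.64, 3.67, 10.2 and 13.1 for the first and 3.64, 2.88, 11.7 and 11.1 for the second, so both were higher in both P90 libraries.

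A second exon 46 member, with exons 10, 19 and 26 lacking, had 5.07, 3.79, 9.07 and 11.2 reads per 10000 in NEC10, GAERS10, NEC90 and GAERS90. A second exon 47 member, with exon 26 the single major exon lacking, had 3.64, 1.99, 9.67 and 6.96. The last 4 of the 10 most read members lacked exon 9 or exon 2, an exon of domain I. Exon 9 was lacking with exons 10, 19 and 26 (2489 reads), with 19 and 26 (2057 reads) and with all 4 major exons (1927 reads), and exon 2 with exons 10, 19 and 26 (1897 reads). These 4 members were higher in P90 than in P10 within each strain, with ratios from 1.04 to 5.13.

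**Figure D2:**
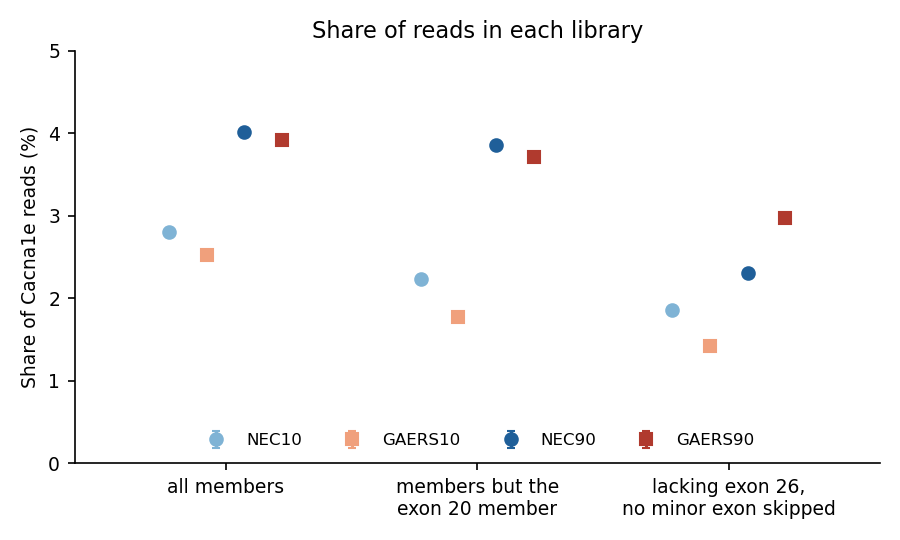
Share of *Cacna1e* reads (%, vertical axis) in each library for all 119 members, for the members without the exon 20 member, and for the 23 prioritized variants that lack exon 26 and no minor exon. Points are single libraries and error bars are 95% Wilson intervals, which are smaller than most symbols. The members held 2.80% and 2.52% at P10 and 4.02% and 3.92% at P90.

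The design allows a comparison of age, with the strains standing in as replicates. The members' share of *Cacna1e* reads was 2.80% in NEC10, 2.52% in GAERS10, 4.02% in NEC90 and 3.92% in GAERS90. Both P90 libraries lay above both P10 libraries, with means of 3.97% and 2.66%, a difference of 1.31 percentage points. In a two-sided exact permutation test the p was 0.333, which is the smallest that 2 libraries against 2 can give, so this design could not reach 0.05. Without the exon 20 member the difference was 1.78 percentage points. The 23 variants that lack exon 26 and no minor exon moved the same way, with 1.86% in NEC10, 1.42% in GAERS10, 2.31% in NEC90 and 2.97% in GAERS90.

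Single members mostly followed the sum. In 93 of 119 members (78.2%) both P90 shares were above both P10 shares, against 64.8% of all 2108 variants. In 4 members (3.36%) both P90 shares were below both P10 shares, against 3.89% of all variants. The median ratio of mean P90 to mean P10 share was 2.08 over members, 1.96 over all variants and 1.45 over the variants with no minor skip. A rise in share at P90 was thus common in the whole table and was not a mark of the members.

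Over the 30 patterns, 26 were higher in both P90 libraries, 2 were lower in both (exon 20, and exons 21 and 22), and 2 overlapped (exon 5, and exons 38 to 44). The order of the 119 members by share was closer between animals of the same age than of the same strain. Spearman's correlation over the members was 0.80 between NEC10 and GAERS10 and 0.91 between NEC90 and GAERS90, and between 0.38 and 0.40 for each pair of different age. Both P10 libraries are shallower than both P90 libraries.

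**Figure D3:**
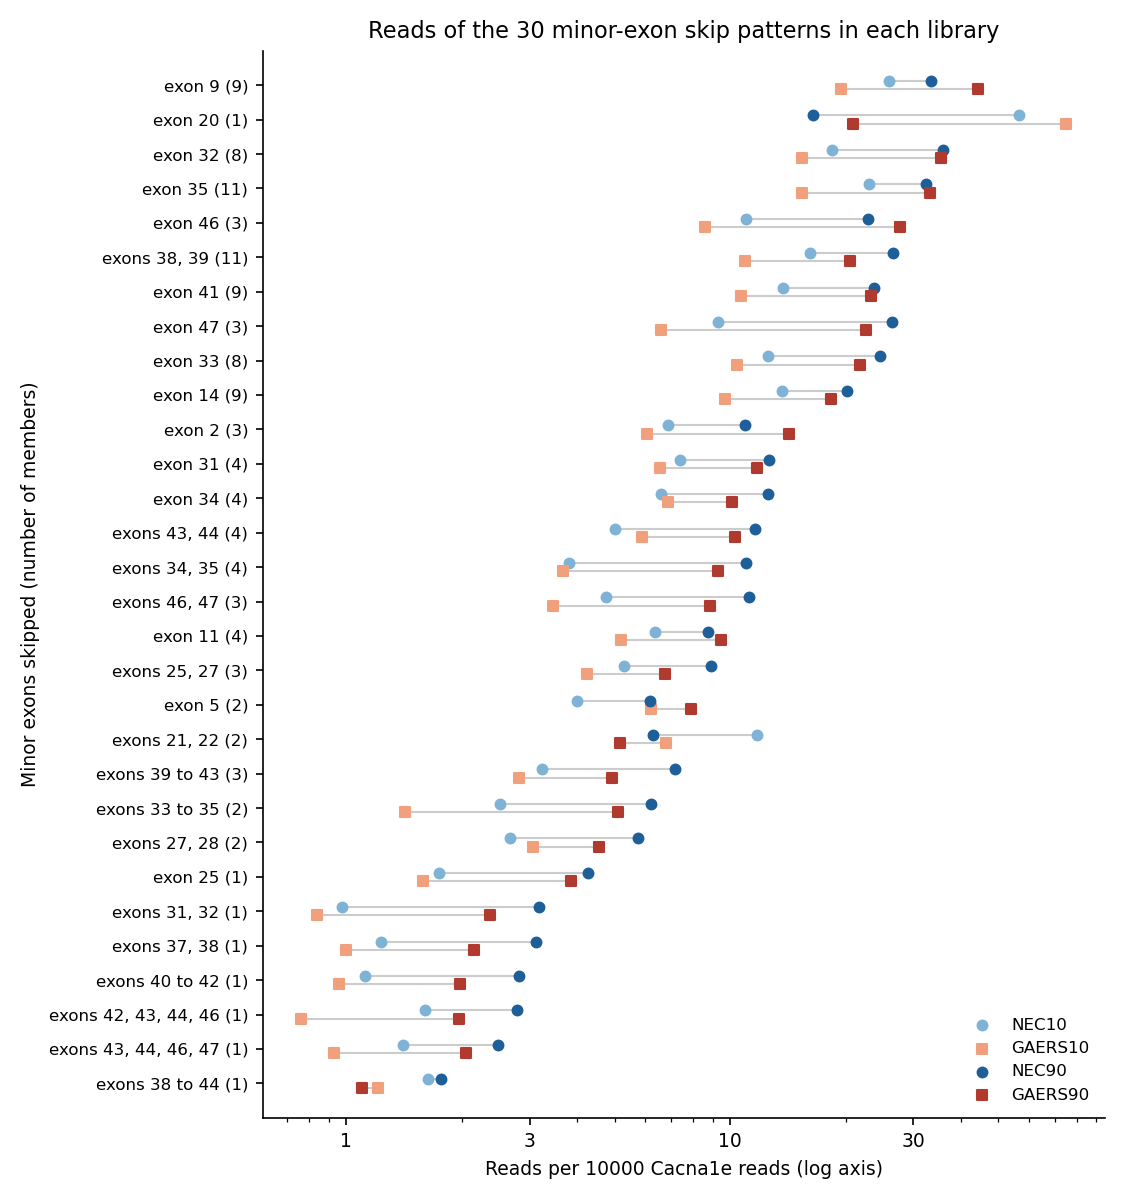
Reads per 10000 *Cacna1e* reads (horizontal log axis) of the 30 patterns of skipped minor exons (rows, ordered by total reads, with the number of members in brackets), with 1 point per library and a line joining P10 to P90 within a strain. The exon 20 pattern fell from 56.4 to 16.5 in NEC and from 75.2 to 20.9 in GAERS, while 26 patterns were higher in both P90 libraries.

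In the edgeR quasi-likelihood test over all 1894 variants that passed the filter on low counts, which all 119 members did, age called 2 variants at an adjusted p of 0.05 (0.106%), and 0 of them were members. At an unadjusted p under 0.05, 32 of 119 members and 588 of 1894 variants passed. TMM scaling sets the typical variant near a log2 fold change of 0, so the general rise in share is not part of these fold changes. The median log2 fold change was 0.15 over members and 0.02 over all variants tested. Scaling by library totals alone moved the median of all variants to 0.96, and then 617 variants (32.6%) and 59 members (49.6%) were called, 58 of these members as higher at P90 against 31.4% of all variants called in that direction. Calls on library totals concern a variant's share and not its change relative to the typical variant.

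The exon 20 member was the one called as lower at P90 on library totals, with a log2 fold change of -1.82 (SE 0.45, adjusted p = 0.0251 by edgeR). Relative to the typical variant its log2 fold change was -2.74 (SE 0.67), with an adjusted p of 0.0652 by edgeR. It was lower in both strains. With strain added as a second factor, 51 variants were called (2.69%), 3 of them members (2.52%) and all 3 as lower. They were the exon 20 member (adjusted p = 0.0414 by edgeR), the exon 41 member lacking exons 10, 26 and 45 (log2 fold change -1.79, adjusted p = 0.0203 by edgeR) and the exon 2 member lacking the same major exons (log2 fold change -1.43, adjusted p = 0.0414 by edgeR). DESeq2 called 115 variants (6.07%) and 9 members (7.56%), 1 as higher and 8 as lower. Without NEC10, edgeR called 15 members (12.6%, against 20% of all variants tested), 2 as higher and 13 as lower. Without GAERS10 it called 13 (10.9%, against 7.84%), all as lower. Without NEC90 or GAERS90 it called 0 members, against 0.393% and 0.425% of all variants tested.

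**Figure D4:**
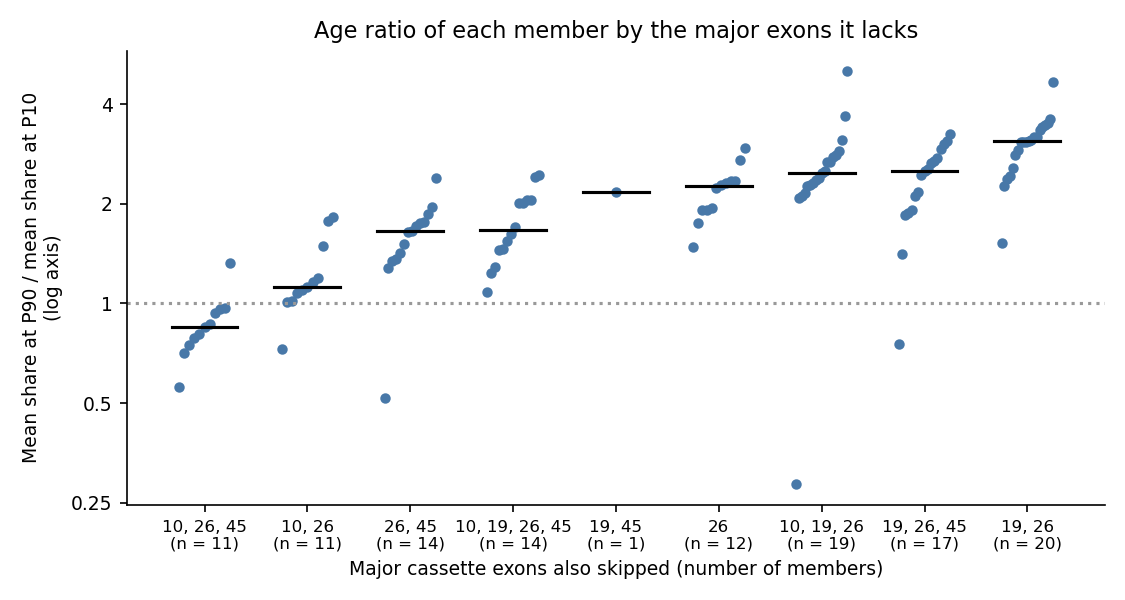
Ratio of mean P90 share to mean P10 share of each member (vertical log axis; 1 point is 1 member), grouped by the major exons it also lacks and ordered by the group median (black line). All 20 members lacking exons 19 and 26 lie above 1 with a median of 3.09, and the 11 members lacking exons 10, 26 and 45 have a median of 0.85. The low point in the group lacking 10, 19 and 26 is the exon 20 member.

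The age ratio of a member varied with the major exons it lacked. Among the 20 members that lacked exons 19 and 26 and kept 10 and 45, all were higher at P90 in both strains, with a median ratio of 3.09. Among the 11 members that lacked exons 10, 26 and 45 and kept 19, 1 was higher in both strains, 5 were lower in both and 5 moved opposite ways, with a median ratio of 0.85. The groups in between had medians of 1.12 (exons 10 and 26), 1.65 (26 and 45), 1.67 (10, 19, 26 and 45), 2.26 (26 alone), 2.47 (10, 19 and 26) and 2.52 (19, 26 and 45). By single exon, 68 of 71 members lacking exon 19 were higher in both strains, against 31 of 48 that kept it. The same count was 61 of 64 members that kept exon 10 against 38 of 55 that lacked it, and 56 of 62 that kept exon 45 against 43 of 57 that lacked it. Over all variants it was 1502 of 2108.

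The same minor exon could have different age ratios beside different major exons. Exon 35 skipped with exons 19 and 26 had 2.005 reads per 10000 in NEC10, 1.31 in GAERS10, 4.35 in NEC90 and 6.19 in GAERS90. Exon 35 skipped with exons 10, 26 and 45, in 2 members, had 4.75, 2.67, 3.51 and 2.53. The first was higher in both P90 libraries, and the second was lower at P90 within each strain with values that lay close in GAERS. The 2 members in the second sum skip the same exons and differ in their transcript ends. The less read one, with 213 reads, was higher at P90 in both strains (0.60 and 0.27 per 10000 at P10, 0.75 and 0.40 at P90).

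Exons 38 and 39 gave a like pair of values. With exons 19 and 26 lacking, in 2 members, they had 1.72 reads per 10000 in NEC10, 1.54 in GAERS10, 5.97 in NEC90 and 5.43 in GAERS90. With exons 10, 26 and 45 lacking they had 2.75, 1.93, 2.49 and 1.28. Of the 5 patterns found with all 8 combinations of exons 10, 19 and 45 lacking or kept, beside exon 26 lacking (exons 9, 14, 33, 35, and 38 with 39), all 5 had a higher ratio with exons 19 and 26 lacking than with 10, 26 and 45 lacking, in each strain. With exons 10, 26 and 45 lacking, the other 3 patterns moved opposite ways in the strains, with P90 to P10 ratios of 0.69 in NEC and 1.14 in GAERS for exon 9, 0.87 and 1.11 for exon 14, and 1.07 and 0.63 for exon 33. The variants with no minor skip were alike in this, with all 4 variants lacking exons 19 and 26 higher in both strains and 0 of the 3 variants lacking exons 10, 26 and 45. The order of the groups in between was not the same in the 2 sets. These groups share libraries and this grouping was chosen after its values were seen, so it carries no test.

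The most read members of the remaining patterns with at least 2% of member reads lacked exons 19 and 26, or 10, 19 and 26. They were picked by reads summed over libraries, which is weighted towards the P90 libraries and so towards members that are higher there. In domain IV, the exon 33 member had 35 reads in NEC10, 52 in GAERS10, 586 in NEC90 and 680 in GAERS90, with P90 to P10 ratios of share of 3.90 in NEC and 5.67 in GAERS. Its log2 fold change relative to the typical variant was 1.32 (SE 0.33, adjusted p = 0.0667 by edgeR), and DESeq2 gave an adjusted p of 0.033. The exon 34 member had ratios of 3.34 and 2.87, the member lacking exons 34 and 35 had 3.67 and 2.65, the exon 35 member 2.17 and 4.71, and the exon 31 member 2.49 and 3.10.

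The rest of these members had ratios above 1 as well. In domain II, the exon 14 member had ratios of 1.90 in NEC and 3.15 in GAERS, and the exon 11 member 1.58 and 3.49. In the C-terminus, the exon 41 member had 2.15 and 5.98, the member lacking exon 39 and exon 38, which also overlaps domain IV, had 3.18 and 4.14, that lacking exons 46 and 47 had 2.03 and 3.04, and that lacking exons 43 and 44 had 2.46 and 1.11. The last of these had 191 reads in GAERS10 and 44 in NEC10, or 2.85 and 1.26 per 10000, against 3.17 in GAERS90 and 3.10 in NEC90. None of these members passed an adjusted p of 0.05 for age in edgeR with TMM. On library totals the same test called all of them but the one lacking exons 43 and 44. That scaling called 32.6% of all variants tested and 49.6% of all members. Whole patterns mostly had lower ratios, such as 1.96 in NEC and 2.09 in GAERS for exon 33, and 1.72 and 2.18 for exon 41. The pattern of exons 46 and 47 had a higher ratio than its most read member in NEC (2.36). That of exons 43 and 44 did so in GAERS (1.75).

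Strain gave no called member. In the edgeR quasi-likelihood test of GAERS against NEC, with the ages standing in as replicates, 0 of 1894 variants (0%) and 0 of 119 members were called. At an unadjusted p under 0.05, 36 variants and 0 members passed, and DESeq2 called 19 variants and 0 members. The median log2 fold change of members was 0.10, against 0.06 over all variants tested. By share, 2 of 119 members (1.68%) were higher in both GAERS than in both NEC libraries, against 1.52% of all variants, and 15 members (12.6%) were lower in both, against 13.8%. With age added as a second factor, 11 variants and 0 members were called.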

How the data were processed

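Bases were called by the authors with Guppy 3.4. FLAIR, with minimap2, placed the reads on rn6, moved their junctions to short-read junctions up to 10 nucleotides away, pooled all libraries to define variants of 3 or more reads, and counted the reads of each variant. The deposited values are counts of reads per splice variant, not normalized. All 4 count columns were matched to libraries by strain and age. Structures, transcript sequences and domain positions came from the study's supplements. Exon sequences were read from 8 of its transcript sequences. They were placed by matching the translation to a reference Cacna1e protein aligned in the supplements, with exon lengths giving the bounds. The sequence of exon 32 came from 1 transcript sequence.

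Shares were computed in pandas 2.3.3 (Python 3.11.15), and Wilson intervals and an exact permutation test in scipy 1.17.1. Counts of all variants were tested with edgeR 4.0.16 in R 4.3.3 (TMM, filterByExpr, glmQLFit and glmQLFTest, Benjamini-Hochberg adjusted p at 0.05), with DESeq2 1.42.0 as an alternative. SE is the log2 fold change divided by the square root of F. The edgeR script was tested on simulated counts.

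Members, lists and named variants were chosen with earlier results of these data known. Named members are the 10 most read, up to 3 called per direction and edgeR comparison, the 3 with the longest gaps, the member keeping exon 26, and the most read of each pattern with at least 2% of member reads. Members named beyond this rule were chosen after their values were seen. Alternatives covered scaling, filters, tool, model terms, transcript ends, library weights and each library left out.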

Additional observations from a re-analysis of the deposited data

Results flagged for a closer look

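The member lacking exons 38 to 44 together with exons 10 and 26 moved opposite ways with age in the strains. Its share rose from 1.63 to 1.76 per 10000 reads in NEC (ratio 1.08) and went from 1.21 to 1.10 in GAERS (ratio 0.910). Among members lacking exons 10, 26 and 45, the P90 to P10 ratio lay on opposite sides of 1 for exon 9 (0.69 in NEC and 1.14 in GAERS), exon 14 (0.87 and 1.11) and exon 33 (1.07 and 0.629). In the same group, the exon 34 member went from 1.86 to 2.40 per 10000 in NEC and from 2.14 to 1.33 in GAERS. The member lacking exons 39 to 43 went from 1.20 to 1.47 in NEC and from 1.33 to 0.97 in GAERS. With 1 animal for each strain and age, these differences between the strains were not tested. Over all members 12 of 119 moved opposite ways in the strains, and over all variants 464 of 2108 did.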

How the results depend on the processing

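The count of members called for age was 0 in edgeR with TMM, with DESeq2 size factors, without a filter on low counts, and with at least 10 reads in every library. It was 59 with library totals only, 9 with the DESeq2 Wald test and 3 with the other factor in the model, and ranged from 0 to 15 with each library left out, where the lone library of an age is assumed to vary like the other age. The highest count, without NEC10, is 12.6% of members against 20% of all variants tested. Library totals do not remove the general rise in share at P90, and the cause of the other differences was not tested. For strain the count was 0 under all alternatives run. The members' share of *Cacna1e* reads was 3.31% with libraries weighted equally, 3.49% at the commonest transcript ends and 3.32% without the exon 20 member (chosen after seeing the data), and ranged from 3.40% to 3.85% with each library left out. The age difference of that share kept its direction, and ranged from 1.17 to 1.45 percentage points with each library left out. The share of member reads lacking exon 26 was 96.7% with libraries weighted equally, 99.2% with each member counted once and 95.9% without the exon 20 member, and ranged from 96.1% to 96.7% with each library left out. The share of the 10 most read members was 31.1% with libraries weighted equally and 28.1% with members of the same junctions merged, and ranged from 25.9% to 31.0% with each library left out. Between 115 and 119 members passed the detection minimums, and between 107 and 113 kept a multiple of 3. The fit with the other factor, which pairs the libraries by strain or by age as a block, gave 3 members for age and 0 for strain. The shallowest library, NEC10, had a median of 56 reads per member, so ratios of single members rest on few reads there.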
